A study of Mus musculus with 6 samples.

Results

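The genes described here are the 10 core genes of the FAS and TRAIL death receptor systems. They were taken by symbol from the 56953 genes of the deposited tables, with earlier results of these data known. They are the ligands Fasl and Tnfsf10, the receptors Fas, Tnfrsf10b, Tnfrsf22, Tnfrsf23 and Tnfrsf26, and the signalling genes Fadd, Casp8 and Cflar. All 10 were found and all 10 passed the filter on low counts. They were measured by RNA sequencing in natural killer (NK) cells, the cytotoxic lymphocytes of innate immunity, from the spleen of wild-type C57BL/6 mice. The cells were cultured for 7 days with recombinant human interleukin-2 (1700 U/ml) and 5% CO2, either at 20% oxygen (normoxia, 3 libraries) or at 1% oxygen (hypoxia, 3 libraries). The labels call the libraries biological replicates and do not say whether they came from separate mice or cultures, so the p-values measure only the spread between these libraries.

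NK cells carry FAS ligand (Fasl) and TRAIL (Tnfsf10) on their surface or in secretory lysosomes and use them to trigger apoptosis in target cells. The ligands engage receptors with an intracellular death domain, FAS for FAS ligand and, in the mouse, TRAIL-R2 (Tnfrsf10b) for TRAIL. The death domain recruits the adaptor FADD, which brings in the protease caspase-8, and the caspase-8 homologue c-FLIP (Cflar) competes for the same complex. The mouse also has receptor genes of this family without a functional death domain. The products of Tnfrsf22 and Tnfrsf23 bind TRAIL as decoys, and Tnfrsf26 is a closely linked relative. NK cells can also receive these signals, because they carry the receptors themselves.

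Each library held between 55104810 and 55794698 estimated counts. In CPM, which puts counts on the scale of a common library total, a single count is about 0.018. Levels are CPM scaled with TMM, a correction for library composition, and are given as mean ± SD over n = 3 libraries. A positive log2 fold change means more mRNA at 1% oxygen, and each has the standard error (SE) of the edgeR fit. Both replicate 1 libraries stood apart from the other 4 on the second principal component, which held 22.0% of the variance. For the 10 genes, edgeR adjusted p-values that cross 0.05 without both of these libraries are therefore given both ways. Of the NK cell markers, Klrb1c (NK1.1) had levels of 478 ± 32.5 (hypoxia) and 459 ± 55.6 CPM (normoxia), and Klrd1 (CD94) at 439 ± 41.4 and 392 ± 30.2 CPM. The summed level of 6 NK cell markers ran from 1444 to 1674 CPM in hypoxia and from 1620 to 1813 CPM in normoxia. Of the 6, 1 (Eomes) was called lower, where 9.72% of all tested genes were.

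At 1% oxygen the libraries held more mRNA of all 4 TRAIL receptor and related receptor genes and less of FAS ligand and c-FLIP. At an edgeR adjusted p under 0.05, 4 of the 10 genes rose (Tnfrsf23, Tnfrsf26, Tnfrsf22 and Tnfrsf10b), where 11.2% of the 15591 tested genes rose. The genes that fell were 2 of 10 (Fasl and Cflar), where 9.72% of all tested genes fell. In either direction 6 of 10 were called, against 20.9% of all tested genes, and the groups did not overlap for 8 of 10, against 38.3%. The 10 genes were chosen with earlier results of these data known, so these shares do not test the set. The median log2 fold change was 0.04 over the 10 genes and -0.0052 over all tested genes. Bulk libraries cannot tell fewer cells of a kind from less RNA per cell.

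**Figure D1:**
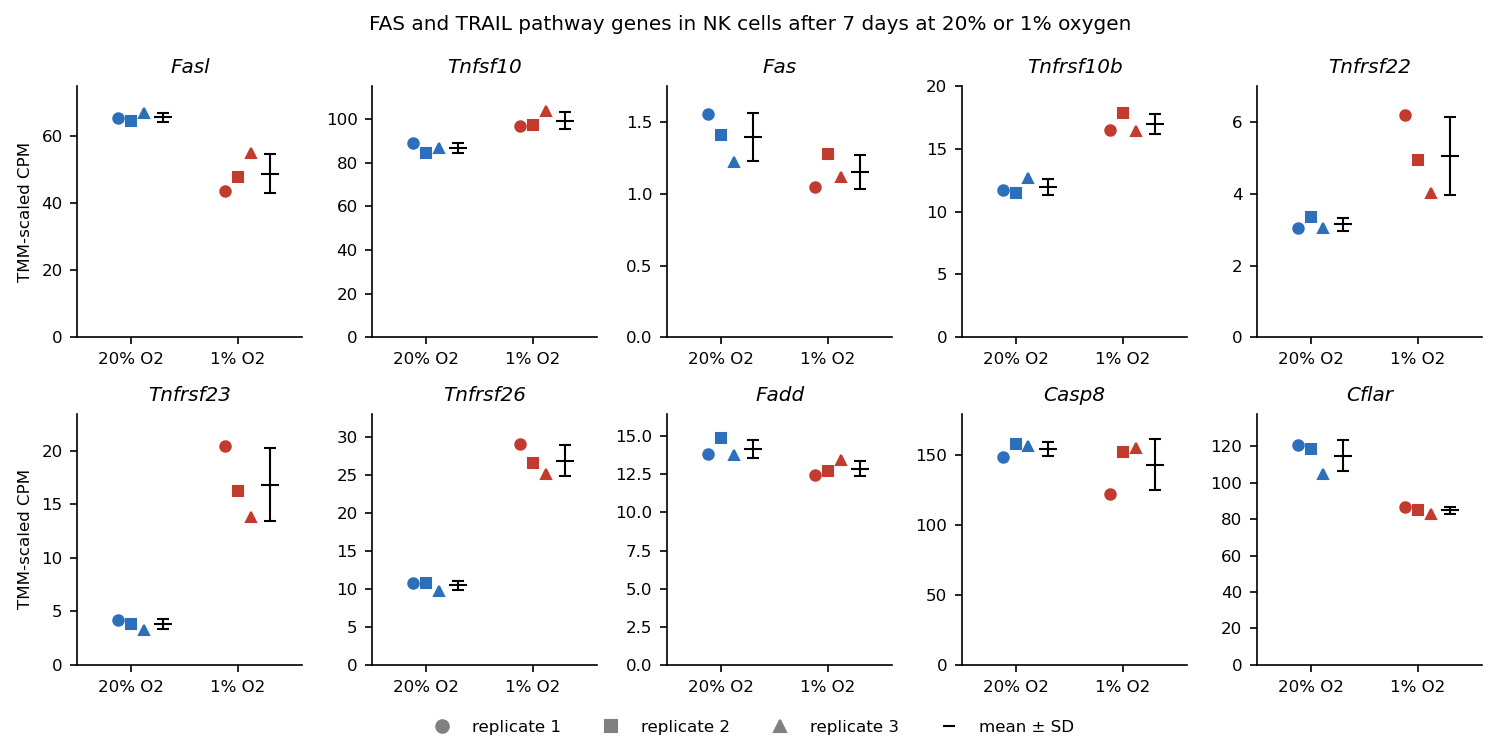
Scaled CPM of each of the 10 genes (y axis, from 0, a separate scale in each panel) in the 3 normoxia libraries (20% O2, blue) and the 3 hypoxia libraries (1% O2, red), with replicate numbers as symbols and the mean ± SD beside them. Tnfrsf23 lay between 13.8 and 20.4 CPM in hypoxia and between 3.27 and 4.21 CPM in normoxia, while Casp8 and Fas overlapped between groups.

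The largest rise among the 10 genes was in Tnfrsf23, the gene of a TRAIL decoy receptor. It stood at 20.4, 16.3 and 13.8 CPM in hypoxia replicates 1 to 3 and at 4.21, 3.86 and 3.27 CPM in normoxia replicates 1 to 3. All hypoxia libraries lay far above all normoxia libraries, and replicate 1 was the highest in each group. The change was 4.45-fold (log2 fold change 2.15 with SE 0.16, adjusted p = 3.0e-05 by edgeR), the 106th largest of 15591. Tnfrsf26, the linked receptor gene, stood at 29.1, 26.5 and 25.0 CPM in hypoxia and at 10.8, 10.8 and 9.76 CPM in normoxia. The groups were well apart, and the change was 2.57-fold (log2 fold change 1.36 with SE 0.09, adjusted p = 1.7e-05 by edgeR).

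Tnfrsf22, the gene of the other TRAIL decoy receptor, rose by a smaller factor, with a wider spread in hypoxia. It stood at 6.22, 4.95 and 4.04 CPM in hypoxia and at 3.05, 3.35 and 3.05 CPM in normoxia (log2 fold change 0.69 with SE 0.17, adjusted p = 0.017 by edgeR). The groups did not overlap, but the lowest hypoxia library, replicate 3, lay close to the highest normoxia library. Without hypoxia replicate 1 the log2 fold change was 0.51 with an edgeR adjusted p of 0.066, and without both replicate 1 libraries it was 0.49 with 0.073, so the call rested on that library.

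The transcripts of Tnfrsf22 and Tnfrsf23 are partly identical, and estimated counts can move between them. In the GENCODE M21 annotation they shared 1033 distinct runs of 31 bases, which was 26.6% of those of Tnfrsf23 and 25.5% of those of Tnfrsf22. Tnfrsf22 also shared 311 to 465 such runs with each of 16 predicted genes, so that 38.3% of its runs were shared with some other gene. The joint count below does not take in these predicted genes. Tnfrsf26 shared none with either decoy gene and 0.69% of its own with other genes. With Tnfrsf22 and Tnfrsf23 counted as a single gene, an alternative chosen after seeing the data, the joint level was 26.7, 21.2 and 17.8 CPM in hypoxia and 7.25, 7.21 and 6.32 CPM in normoxia. The joint log2 fold change was 1.66 (SE 0.14, edgeR adjusted p = 6.7e-05), so the rise of the pair does not depend on how reads were divided between them, whereas the size given for each gene does.

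Tnfrsf10b encodes the only TRAIL receptor of the mouse with a death domain. It stood at 16.5, 17.9 and 16.4 CPM in hypoxia and at 11.7, 11.5 and 12.7 CPM in normoxia, with no overlap. It rose 1.42-fold (log2 fold change 0.50 with SE 0.08, adjusted p = 0.0027 by edgeR). Fas, the gene of the FAS receptor, was scarce, with 60 to 82 counts per library. It stood at 1.05, 1.28 and 1.12 CPM in hypoxia and at 1.56, 1.41 and 1.22 CPM in normoxia. The groups overlapped, and the log2 fold change of -0.28 had a 95% interval from -0.70 to 0.14 (edgeR adjusted p = 0.34), so neither a fall nor a small rise was detectable in these libraries.

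Of the ligands, Fasl fell, and Tnfsf10 was not called in the unpaired fit but was called in the paired one. Fasl stood at 43.7, 47.6 and 54.9 CPM in hypoxia and at 65.2, 64.3 and 66.8 CPM in normoxia. The normoxia libraries were close together, all above the spread of the hypoxia libraries, and the fall was 1.34-fold (log2 fold change -0.43 with SE 0.09, adjusted p = 0.0079 by edgeR). Tnfsf10 stood at 96.7, 97.2 and 104 CPM in hypoxia and at 89.1, 84.5 and 86.8 CPM in normoxia. The groups did not overlap, but the difference was small (log2 fold change 0.19, SE 0.07, 95% interval 0.04 to 0.34) and the edgeR adjusted p was 0.070. It passed when same-numbered libraries were paired in the fit (edgeR adjusted p = 0.0081) and without both replicate 1 libraries (0.049). It also passed with scaling by library size alone (0.012), with limma-trend on the deposited values (0.011) and with the stricter filter (0.037).

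**Figure D2:**
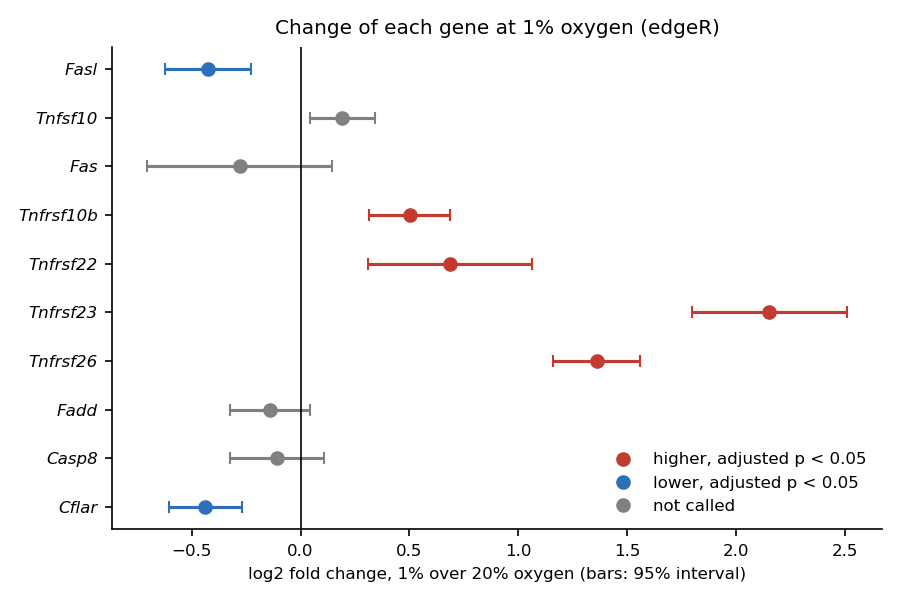
Log2 fold change of each gene (x axis, hypoxia over normoxia, edgeR) with its 95% interval as the bar. Red points rose and blue points fell at an adjusted p under 0.05, and grey points were not called. Tnfrsf23 (2.15) and Tnfrsf26 (1.36) lie far to the right of the other genes, and the grey genes include Tnfsf10 (0.19).

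The signalling genes split between Cflar and the others. Cflar, which encodes c-FLIP and so limits caspase-8 activation, stood at 86.5, 85.1 and 82.6 CPM in hypoxia and at 121, 119 and 105 CPM in normoxia. Every normoxia library lay above every hypoxia library, and the fall was 1.35-fold (log2 fold change -0.44 with SE 0.08, adjusted p = 0.0031 by edgeR). The gene has long and short forms of c-FLIP, which counts per gene do not tell apart. Casp8, the gene of the initiator protease, stood at 123, 152 and 155 CPM in hypoxia and at 149, 158 and 156 CPM in normoxia. Hypoxia replicate 1 lay below the other 5 libraries, which were close together, and the log2 fold change was -0.11 (95% interval -0.32 to 0.11, edgeR adjusted p = 0.48). Fadd, the adaptor gene, stood at 12.5, 12.7 and 13.4 CPM in hypoxia and at 13.9, 14.8 and 13.7 CPM in normoxia. Its groups did not overlap, by a narrow margin, and the log2 fold change was -0.14 (95% interval -0.32 to 0.05, edgeR adjusted p = 0.27).

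Levels of different genes were set side by side as CPM per kilobase of mean transcript length. Casp8 was the highest in normoxia (77.4 ± 2.38 CPM per kilobase), followed by Cflar (62.7 ± 4.65), Fasl (55.9 ± 1.09) and Tnfsf10 (29.0 ± 0.764). Each of these was above the next in every normoxia library. In hypoxia the order of these 4 was the same, but Cflar (46.3 ± 1.07 CPM per kilobase) and Fasl (41.6 ± 4.87) overlapped. The receptors were all lower, and their order changed. In normoxia it was Tnfrsf10b (5.15 ± 0.267 CPM per kilobase), Tnfrsf26 (3.39 ± 0.197), Tnfrsf23 (2.49 ± 0.311), Tnfrsf22 (1.43 ± 0.0786) and Fas (1.26 ± 0.152), with overlap between the last 2 of these. In hypoxia it was Tnfrsf23 (11.1 ± 2.22 CPM per kilobase), Tnfrsf26 (8.71 ± 0.659), Tnfrsf10b (7.29 ± 0.343), Tnfrsf22 (2.30 ± 0.497) and Fas (1.04 ± 0.106), with overlap between the first 2. Fadd, at 3.29 ± 0.128 CPM per kilobase in hypoxia and 3.63 ± 0.155 in normoxia, was far below Casp8 in both. The order depends on the length used, and the following values per kilobase of the longest transcript were added after seeing the data. Casp8 remained the highest, and Fasl (33.8 ± 0.658 CPM per kilobase in normoxia, 25.2 ± 2.94 in hypoxia) was then above Cflar (17.5 ± 1.30 and 12.9 ± 0.297). In hypoxia Tnfrsf26 (8.65 ± 0.654 CPM per kilobase) was then above Tnfrsf10b (5.33 ± 0.251) and Tnfrsf23 (5.02 ± 1.01), which overlapped, and in normoxia Tnfrsf10b was still the highest of the receptors (3.76 ± 0.195).

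Ratios between genes within a library do not depend on the scaling between libraries. They were compared by two-sided exact permutation tests, which cannot go below p = 0.10 with 3 libraries against 3, so none of the 7 ratios could pass a threshold of 0.05. The summed level of Tnfrsf22, Tnfrsf23 and Tnfrsf26 was 3.62, 2.81 and 2.69 times that of Tnfrsf10b in hypoxia and 1.52, 1.53 and 1.23 times in normoxia. All hypoxia libraries lay above all normoxia libraries, with a 2.12-fold difference (exact p = 0.10, adjusted over the 7 ratios 0.17). Within the 3 linked genes, Tnfrsf23 made up 49.9 ± 2.36% of the summed level in hypoxia and 34.0 ± 2.03% in normoxia, and Tnfrsf22 made up 10.3 ± 0.675% and 19.6 ± 1.39%. Per longest transcript Tnfrsf23 made up 33.5 ± 2.37% in hypoxia and 21.4 ± 1.42% in normoxia, and Tnfrsf26 held the largest share in both (58.4 ± 3.08% and 64.2 ± 0.551%). Tnfrsf23 over Tnfrsf22 was 4.77, 4.76 and 4.95 in hypoxia and 2.00, 1.67 and 1.56 in normoxia (exact p = 0.10), a ratio that depends on how shared reads were divided. That division also enters the ratio of Tnfrsf23 to Tnfrsf26, which was 1.43, 1.25 and 1.12 in hypoxia and 0.789, 0.726 and 0.681 in normoxia (exact p = 0.10).

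The ratio of the ligand genes, Tnfsf10 to Fasl, was 0.868, 0.799 and 0.739 in hypoxia and 0.535, 0.515 and 0.509 in normoxia. The groups did not overlap, with a 1.54-fold higher ratio in hypoxia (exact p = 0.10). Cflar over Casp8 was 0.769, 0.609 and 0.580 in hypoxia and 0.882, 0.820 and 0.732 in normoxia. Hypoxia replicate 1 lay among the normoxia libraries, so the groups overlapped (exact p = 0.20, adjusted over the 7 ratios 0.28). Paired by replicate number, the ratio was lower in hypoxia in 3 of 3 pairs (exact p = 0.25, the smallest that 3 pairs can give). Fadd over Casp8 (exact p = 0.90) and Fas over Fasl (exact p = 0.40) also overlapped between groups. Paired in the same way, every ratio, Fas over Fasl included, gave an exact p of 0.25, except Fadd over Casp8 (exact p = 0.75).

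**Figure D3:**
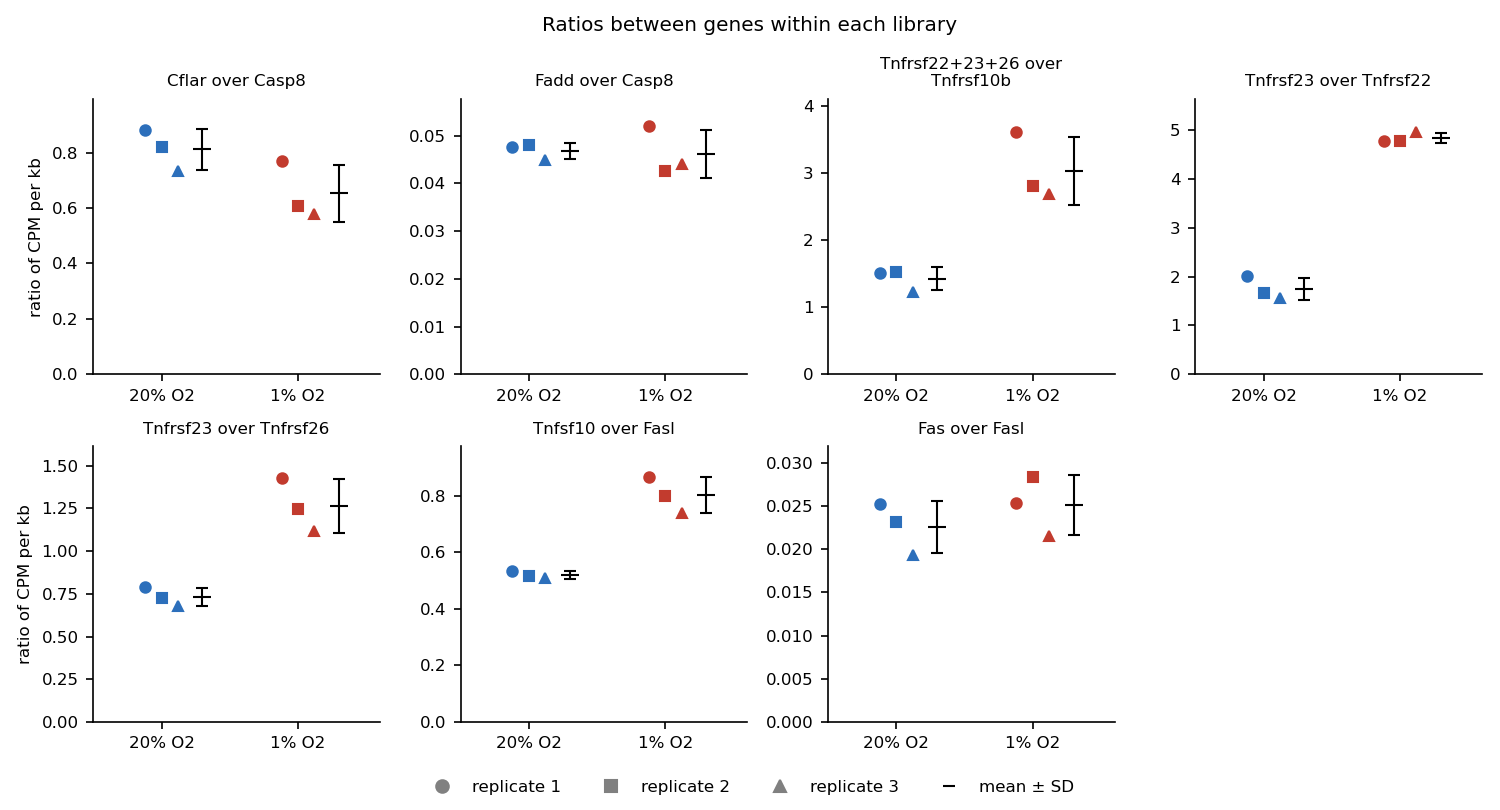
Ratios of CPM per kilobase between genes within each library (y axis, from 0, a separate scale in each panel), with normoxia in blue, hypoxia in red, replicate numbers as symbols and the mean ± SD beside them. The ratio of the summed Tnfrsf22, Tnfrsf23 and Tnfrsf26 level to Tnfrsf10b lies between 2.69 and 3.62 in hypoxia and between 1.23 and 1.53 in normoxia, while Fadd over Casp8 overlaps.

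The RefSeq promoter table matched 7 of the 10 genes by symbol, and Tnfrsf10b, Tnfrsf22 and Tnfrsf26 were not matched. The 250 bases before the annotated start are shown for the 3 matched genes that were called, the decoy receptor gene that rose and the ligand and inhibitor genes that fell. They are given 5′ to 3′ on the strand of the gene in the build GRCm38.p6, which is older than the authors' build: Tnfrsf23 at chr7:143685876-143686125 (minus strand), Fasl at chr1:161788496-161788745 (minus strand) and Cflar at chr1:58711241-58711490 (plus strand). Capitals mark letters that match a motif searched on both strands.
Tnfrsf23: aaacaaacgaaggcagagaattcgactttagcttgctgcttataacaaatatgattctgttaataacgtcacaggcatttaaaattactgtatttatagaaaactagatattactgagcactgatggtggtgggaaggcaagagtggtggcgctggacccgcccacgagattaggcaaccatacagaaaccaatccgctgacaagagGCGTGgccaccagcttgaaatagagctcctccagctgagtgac
Fasl: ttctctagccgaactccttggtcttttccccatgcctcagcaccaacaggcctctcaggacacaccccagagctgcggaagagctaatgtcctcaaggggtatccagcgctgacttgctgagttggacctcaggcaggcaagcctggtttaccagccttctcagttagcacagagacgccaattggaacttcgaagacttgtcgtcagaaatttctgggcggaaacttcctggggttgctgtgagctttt
Cflar: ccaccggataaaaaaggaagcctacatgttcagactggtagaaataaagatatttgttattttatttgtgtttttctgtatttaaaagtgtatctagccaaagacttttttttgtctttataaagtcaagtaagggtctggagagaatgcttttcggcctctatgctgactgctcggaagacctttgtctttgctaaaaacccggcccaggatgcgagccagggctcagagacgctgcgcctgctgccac

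The letters GCGTG, a form of the core that hypoxia-inducible factors bind, were found once before Tnfrsf23, from -43 to -39 counted back from the start, and once before Fas. They occur in 28.2% of the 32851 promoter windows of the same length. The other form, ACGTG, was found before Fas and Fadd and occurs in 16.6% of windows. Matches overlap at Fas, where CACGTG reads as ACGTG on both strands. The interferon response letters GAAANNGAA (7.13% of windows) and the NF-kB letters GGANNTTCC (3.59%) were found before none of the 7 genes, and the STAT letters TTCNNNGAA (7.02%) before Fas. A match is a description of these letters and not of a site in use. Fasl, Cflar, Tnfsf10 and Casp8 held none of the 5 motifs in this window.

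Tnfrsf26, Tnfrsf22 and Tnfrsf23 lie side by side, and the 6 nearest protein-coding genes on each side were examined for comparison. Of these 12, 7 were tested, 2 rose (Cdkn1c and Mrgpre) and 1 fell, or 42.9% called. Of all tested genes, 11.2% rose, 9.72% fell and 20.9% were called in either direction. Cdkn1c was scarce, at 4 to 16 counts per library (log2 fold change 1.49 with SE 0.39, adjusted p = 0.023 by edgeR). It passed the filter on low counts only through the hypoxia libraries. Its call, which enters the 42.9%, was therefore open only to a rise. The adjacent gene Cars, which encodes a cysteinyl-tRNA synthetase, fell from 100.1 ± 2.53 to 62.4 ± 1.56 CPM (log2 fold change -0.68 with SE 0.06, adjusted p = 0.00012 by edgeR). On the other side Osbpl5, a gene of an oxysterol-binding protein relative, was at 37.8 ± 0.818 (hypoxia) and 43.8 ± 2.90 CPM (normoxia) (log2 fold change -0.21 with SE 0.07, adjusted p = 0.069 by edgeR). Mrgpre, a receptor gene beyond it, rose from 1.12 ± 0.176 to 3.43 ± 0.307 CPM (log2 fold change 1.61 with SE 0.18, adjusted p = 0.00026 by edgeR). Neither gene directly beside the 3 receptor genes was called higher.

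Beyond the 10 genes, 46 other genes of death receptor signalling were listed, and 44 were tested. Of these, 7 rose and 12 fell, or 43.2% called against 20.9% of all tested genes. The median change was -0.06 on the log2 scale, against -0.0052 over all tested genes. With scaling by library size alone 8 rose, 8 fell and the median was 0.03. Among receptors, Tnfrsf21 (death receptor 6) rose from 24.3 ± 1.39 to 34.0 ± 1.97 CPM and Tnfrsf1a (TNF receptor 1) from 40.9 ± 0.949 to 53.4 ± 0.889 CPM (edgeR adjusted p = 0.0024 and 0.0028). Tnfrsf25 (death receptor 3), chosen after its values were seen, was scarce, at 6 to 75 counts per library. It rose from 0.220 ± 0.0980 to 0.910 ± 0.341 CPM (log2 fold change 2.03 with SE 0.39, adjusted p = 0.0053 by edgeR). Tnfrsf11b, which encodes osteoprotegerin, a soluble receptor known to bind RANKL and TRAIL, moved the opposite way to the membrane decoys. It stood at 5.94, 5.27 and 7.10 CPM in hypoxia and at 16.6, 14.6 and 14.3 CPM in normoxia (log2 fold change -1.31 with SE 0.12, adjusted p = 0.00012 by edgeR).

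Birc3 and Tnfaip3, whose products hold back death receptor signalling, were among the 12 genes of the wider list that fell. The others were Tnfrsf11b, Mlkl, Traf2, Birc2, Bid, Htra2, Rnf31, Faf1, Daxx and Cd47. Birc3, the gene of the ubiquitin ligase cIAP2, fell from 72.0 ± 1.51 to 41.9 ± 2.87 CPM (log2 fold change -0.78 with SE 0.07, adjusted p = 0.00011 by edgeR). Tnfaip3, the gene of the ubiquitin-editing enzyme A20, fell from 153 ± 17.9 to 92.5 ± 7.13 CPM (log2 fold change -0.73 with SE 0.10, adjusted p = 0.00086 by edgeR). Ripk1, the gene of a kinase of the TNF receptor complex, chosen after its values were seen, had a log2 fold change of -0.01 with a 95% interval from -0.15 to 0.13 (edgeR adjusted p = 0.93).

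**Figure D4:**
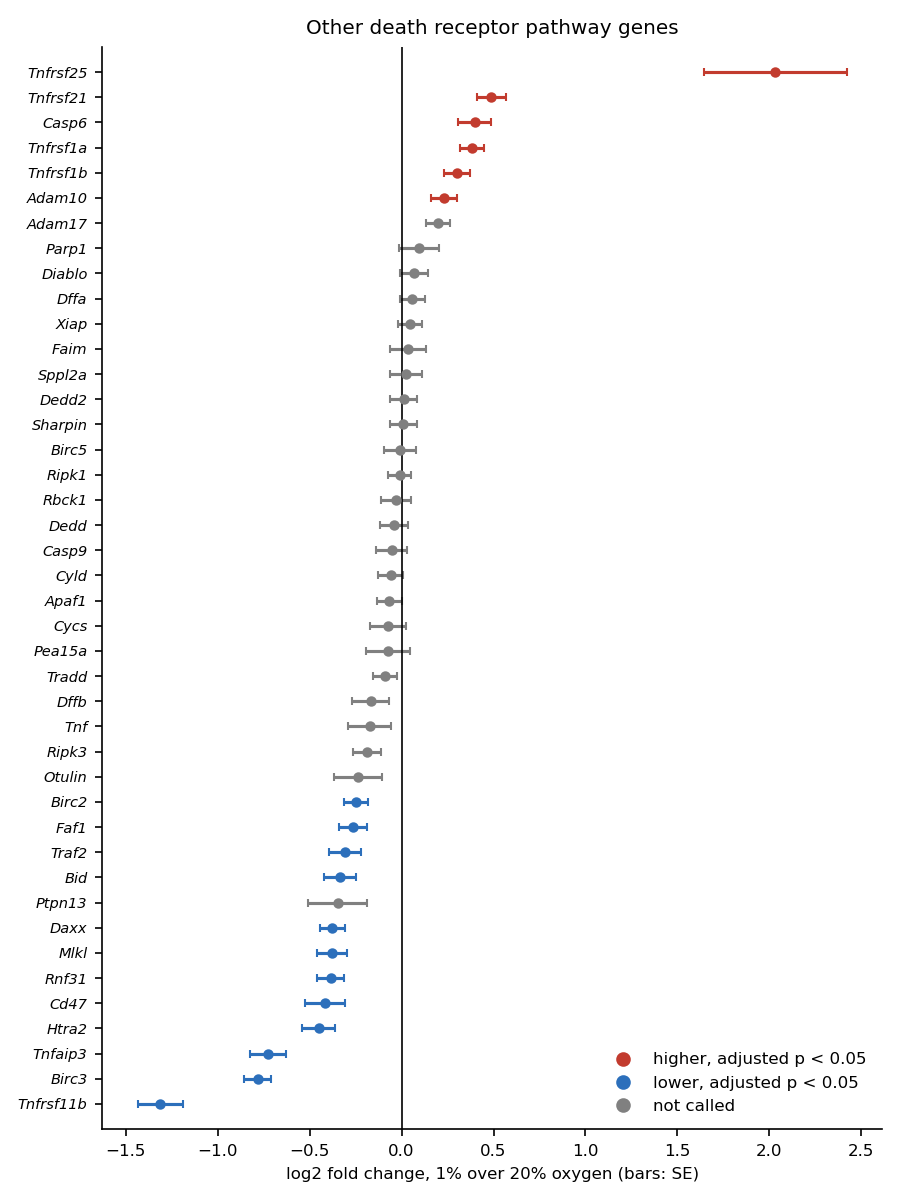
Log2 fold change (x axis, hypoxia over normoxia, edgeR) of 42 of the 44 tested genes of the wider death receptor list, with the SE as the bar, ordered by size. Red genes rose (6), blue genes fell (12) and grey genes were not called (24). Tnfrsf11b (-1.31) and Tnfrsf25 (2.03) lie at the ends.

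Of 20 genes of transcription factors known to act on the ligand or receptor genes, 4 rose and 6 fell, or 50.0% called against 20.9% of all tested genes. Irf9 fell from 58.7 ± 4.29 to 20.1 ± 0.760 CPM and Irf7 from 54.0 ± 8.51 to 15.8 ± 1.59 CPM (edgeR adjusted p = 5.6e-06 and 2.5e-05). Both are factors of the interferon response, for which Tnfsf10 is a known target, and Tnfsf10 itself had a log2 fold change of 0.19. Foxo1 rose from 61.9 ± 8.0 to 98.5 ± 10.2 CPM and Egr2 from 18.1 ± 1.38 to 26.2 ± 2.46 CPM (edgeR adjusted p = 0.0022 and 0.0036). FOXO and EGR factors are known activators of Fasl, which fell.

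Markers of other cells moved with oxygen as well. Of 6 markers of type 1 innate lymphoid cells, relatives of NK cells that carry TRAIL, 4 rose, where 11.2% of all tested genes rose. Their summed level was 477 to 522 CPM in hypoxia and 318 to 390 CPM in normoxia. The most abundant were Itga1 (253 ± 8.01 and 220 ± 22.3 CPM, edgeR adjusted p = 0.13) and Cxcr6, which rose from 71.1 ± 7.47 to 141 ± 16.3 CPM (edgeR adjusted p = 0.00023). Of 8 T cell markers 3 rose (Cd3g, Cd3d and Cd4), against the same 11.2%, with summed levels of 259 to 277 CPM against 180 to 225 CPM. Cd4 was scarce, at 6 to 50 counts per library. The most abundant were Cd3g (103 ± 10.9 and 56.2 ± 6.80 CPM) and Cd28 (92.4 ± 11.2 and 92.6 ± 13.1 CPM). Cd3e (11.3 ± 2.67 and 11.7 ± 1.19 CPM) and Trac (15.5 ± 1.86 and 16.4 ± 1.18 CPM) were among the markers not called. Macrophage and monocyte markers summed to 50.8 to 83.6 CPM against 15.5 to 29.2 CPM, mostly Cd68, with Cd14 at 1.47 ± 0.303 and 3.88 ± 0.637 CPM and C1qa at 0 in all 6 libraries. Dendritic cell markers summed to 316 to 357 CPM against 172 to 196 CPM, nearly all of it Itgax, which NK cells also express, with Zbtb46 at 3.74 ± 0.202 and 6.15 ± 0.151 CPM. Basophil and mast cell markers summed to 76.1 to 89.6 CPM against 19.1 to 27.2 CPM, nearly all of it Mcpt8, with Cpa3 at 1.96 ± 0.470 and 0.704 ± 0.498 CPM. Fcer1a (0.00593 ± 0.0103 and 0 CPM), Ms4a2 (0.0117 ± 0.0101 and 0 CPM) and Prss34 (0.130 ± 0.156 and 0.0861 ± 0.104 CPM) were nearly absent and not tested. Neutrophil markers summed to 0.683 to 1.91 CPM in hypoxia and 0.127 to 0.305 CPM in normoxia. The most abundant, S100a8 (0.420 ± 0.242 and 0.00635 ± 0.0110 CPM) and S100a9 (0.431 ± 0.238 and 0.00635 ± 0.0110 CPM), were called higher. Both passed the filter on low counts only through the hypoxia libraries, so only a rise could be called. Their counts per library were 0 to 38 and 0 to 40. Ly6g was at 0.0290 ± 0.0265 and 0.118 ± 0.0464 CPM and was not tested. B cell markers, mostly Cd79b with Cd79a at or below 0.11 CPM in both group means, summed to 0.996 to 1.14 CPM in hypoxia and 0.256 to 0.525 CPM in normoxia. The part of these cells in the changes of the 10 genes was not tested.

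**Figure D5:**
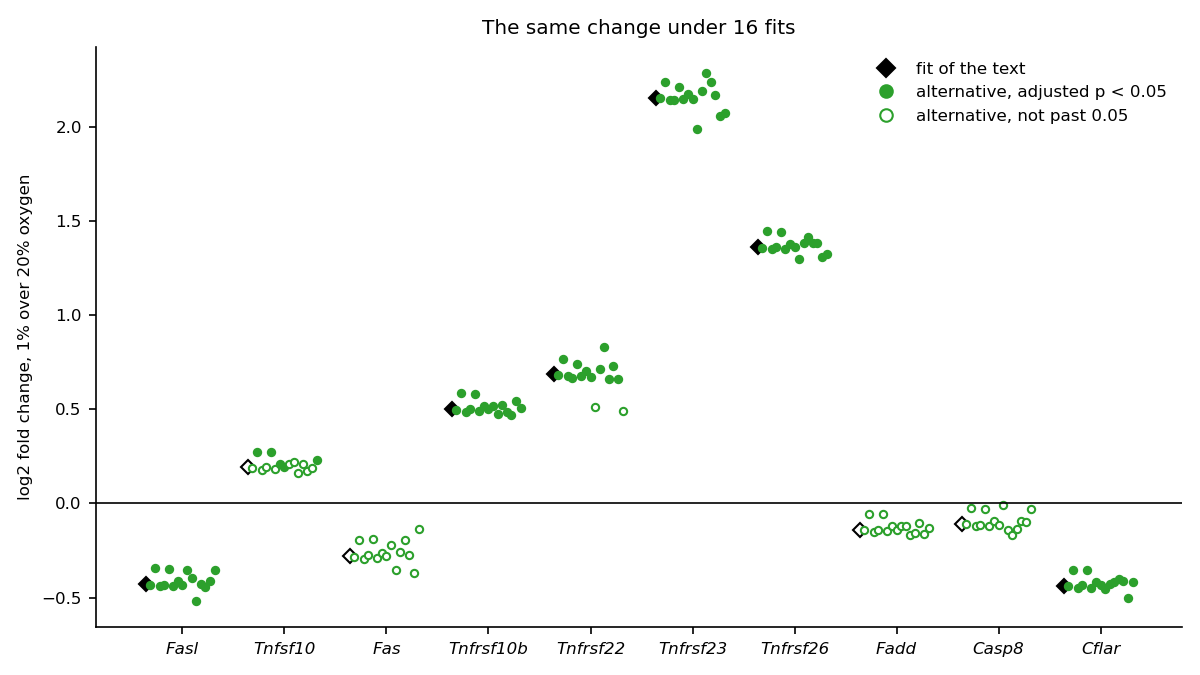
Log2 fold change of each of the 10 genes (y axis, hypoxia over normoxia) in the fit of the text (black diamond) and 15 alternatives (green circles), filled where the adjusted p was under 0.05 and open where it was not. Tnfrsf23 stayed between 1.99 and 2.28 and Tnfrsf26 between 1.30 and 1.44, while Tnfrsf22 has 2 open circles and Tnfsf10 has filled and open ones.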

How the data were processed

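RNA of 3 hypoxia and 3 normoxia libraries of cultured spleen NK cells was made into strand-specific mRNA libraries, per the labels' protocols. Trim Galore 0.6.4, kallisto 0.4.6, edgeR 3.17 and the build GRCm39 are named in the submitters' processing notes, while no source used here gives the annotation release. Estimated counts were deposited per Ensembl gene, not normalized, beside the authors' log2 CPM values, which equalled the log2 CPM with a prior count of 2 computed from those counts (largest difference 0).

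Symbols were matched for 52029 of 56953 genes with a GENCODE M21 table, which also gave transcript lengths. Estimated counts were rounded, filtered with filterByExpr (minimum count 10, minimum total 15; 15591 genes kept), scaled with TMM and tested with the quasi-likelihood test of edgeR 4.0.16 without covariates across all genes, and adjusted by Benjamini-Hochberg (threshold 0.05). The SE was taken as the size of the log2 fold change divided by the root of its F value. The fit was also run on simulated counts with known changes, drawn without the shared deviations of same-numbered libraries described below. That run does not show how the fit performs where such deviations are present. Ratios were tested with scipy 1.17.1. Alternatives used DESeq2 1.42.0 and limma 3.58.1, other scaling and filters, a replicate block and left-out libraries.

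Libraries with the same number deviated together from their group means, with correlations of 0.47, 0.33 and 0.30 over the tested genes. The replicate block, an alternative, paired the samples by these numbers. Unless pairing is named, p-values come from tests without it. Libraries of 1 group differed beyond sampling noise, with a chi-square of 12.4 to 59.2 per gene on average. The genes and lists were chosen with earlier results of these data known. Named genes were the 10 genes, up to 5 called genes of smallest p in the wider list (at most 3 in a direction), up to 2 in each direction among the transcription factors, and the 2 most abundant markers of each cell type. Some other genes were named after their values were seen. Estimated counts of near-identical transcripts can be divided between genes. Values of 2 genes of the wider list are not reported here.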

Additional observations from a re-analysis of the deposited data

How the results depend on the processing

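Of the 10 genes, Fasl, Tnfrsf10b, Tnfrsf23, Tnfrsf26 and Cflar kept their direction and call in all 15 alternatives, with log2 fold changes of -0.52 to -0.34, 0.47 to 0.58, 1.99 to 2.28, 1.30 to 1.44 and -0.50 to -0.35. Fas, Fadd and Casp8 kept a negative fold change and were called in none of the 15. Tnfrsf22 lost its call without hypoxia replicate 1 and without both replicate 1 libraries, and Tnfsf10 gained one in 5 alternatives, with values given above. With the replicate block 5 of the 10 genes rose and 2 fell, and of all genes 2988 rose and 3120 fell, against 1745 and 1516 without it. In the wider death receptor list 8 rose and 15 fell with it, against 7 and 12. The block changed no call of the 10 genes but that of Tnfsf10. Scaling by library size alone gave 2384 higher and 998 lower over all genes, so 70.5% of calls were higher in place of 53.5%, and limma-trend on the deposited values gave 2385 and 987. The median over all genes then moved to a log2 fold change of 0.08 in both. Of the wider death receptor list, 50.0% of calls were higher in those 2 settings, in place of 36.8%.

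With each library left out in turn, 1146 to 1980 genes rose and 804 to 1636 fell. The fewest rose without normoxia replicate 2 (1146, with 942 lower) and the fewest fell without hypoxia replicate 2 (804, with 1160 higher). In the wider list 4 to 7 rose and 6 to 13 fell, with 4 higher without normoxia replicate 2 and 6, 8 and 8 lower without hypoxia replicate 2, hypoxia replicate 1 and normoxia replicate 3. The log2 difference of Fadd over Casp8, -0.02 over all libraries, lay between -0.11 and 0.03, positive without hypoxia replicate 2 (0.032) or 3 (0.0067). The other 6 ratios kept their direction. The causes of these changes were not tested. Depth limits Fas most, at 60 to 82 counts per library.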
